A study of Mus musculus with 2 samples.

Results

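The replication-dependent histone genes encode the linker histone H1 and the core histones H2A, H2B, H3 and H4 that package newly copied DNA. The members were the 67 genes, of 32285 genes in the table, whose symbol begins with Hist1h, Hist2h, Hist3h or Hist4h: 6 genes of H1, 18 of H2A, 18 of H2B, 12 of H3 and 13 of H4. They were followed in 2 single-cell libraries of mouse myeloid-derived suppressor cells (MDSCs), immature myeloid cells known for restraining T cells, generated in vitro with 40 ng/mL each of IL-6 and GM-CSF and taken on day 4. The control culture received the vehicle DMSO. The other received 50 nM Selinexor, an inhibitor of exportin 1, the receptor that carries many proteins and some RNAs out of the nucleus. In both cultures, live CD11b+ cells were sorted before capture, and the source of the starting cells is not given in the sources used here. With 1 library for each treatment, differences could not be checked against replicates and no test was possible. Every interval given is a 95% interval for counting error only.

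Most members sit in gene clusters and are transcribed mainly during S phase, when their proteins are needed. Their main mRNAs are known for ending in a conserved stem-loop, bound by the stem-loop binding protein Slbp, instead of a poly(A) tail. When DNA synthesis stops, these mRNAs are degraded through the same structure. Some members can also give polyadenylated mRNA from a downstream poly(A) signal in cells that have left the cycle. An assay that primes on poly(A) recovers the polyadenylated forms, so the counts below need not follow the total mRNA of a gene, and levels are compared between cells and libraries for the same gene.

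The stem-loop is shown because it is the feature these genes share beyond their names. In the GENCODE vM21 transcripts (GRCm38, the same assembly as mm10), 46 of the 67 members had the 16-base element after the stop codon, in 8 sequence variants. The commonest, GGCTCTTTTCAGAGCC, occurred in 26 members, and the H4 genes carried mostly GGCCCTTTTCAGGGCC, found in 7. Of the remaining 21 members, many are annotated only to the stop codon or little beyond it, so absence of the element there says nothing about the gene. The lines below give 1 example of each of 4 variants in the direction of transcription, 5′ to 3′, with the paired stem bases in capitals and the loop and flanking bases in lower case. The coordinates run from the first to the last capital, in the 3′ untranslated region.
Hist1h1e (chr13:23621782-23621797, minus strand): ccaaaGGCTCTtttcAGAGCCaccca
Hist1h4d (chr13:23581950-23581965, plus strand): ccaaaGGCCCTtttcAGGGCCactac
Hist1h3c (chr13:23745047-23745062, minus strand): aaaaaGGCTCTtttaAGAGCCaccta
Hist2h2ac (chr3:96220418-96220433, minus strand): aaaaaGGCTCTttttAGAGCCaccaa

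A poly(A) signal AATAAA was found after the stop codon in 18 members, 14 of which also had the stem-loop. The 3 shown here, with AATAAA in capitals, belong to 3 of the 4 members with the largest share of counts in cells that lack proliferation genes, as described further on.
Hist1h2bc (chr13:23692450-23692479, plus strand): tgatgtatatatAATAAAtgtcatgtaaag
Hist3h2a (chr11:58956785-58956814, plus strand): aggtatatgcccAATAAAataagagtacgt
Hist1h1c (chr13:23740330-23740359, plus strand): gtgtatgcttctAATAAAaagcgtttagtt

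In Hist3h2a and Hist1h1c the signal stood 1666 and 854 bases after the stop codon, close to the annotated transcript end. Both of these genes also held the stem-loop, 41 and 24 bases after the stop codon. In Hist1h2bc the signal stood 295 bases after the stop codon, and the annotated transcript had no stem-loop matching the pattern searched. That transcript is spliced, with 1156 bases from a gene that spans chr13:23684199-23692908, and the 295 bases are counted along it. The sequence spliced out was not searched, so a stem-loop there would not be seen.

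The cells kept numbered 1739 in the DMSO library, with 14175475 UMIs (unique molecular identifiers, counted molecules), and 1963 in the Selinexor library, with 12784930. Median depth per cell was 7785 UMIs for DMSO and 3908 for Selinexor, and the libraries shared 0 cell barcodes. Markers of the myeloid states expected in such cultures were present, while T cell, B cell and NK cell marker lists summed to under 10 CPM in either library. CPM stands for UMIs of a gene scaled to 1000000 gene UMIs of the library or cell class named. The early neutrophil markers (7 of 8 found in the table) summed to 1288 CPM in the DMSO library and 522 CPM in the Selinexor library, and their part in the results below was not tested.

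The DMSO library had UMIs from 62 members and the Selinexor library from 61. Hist1h2aa, Hist1h2ba, Hist1h2bq, Hist1h4m and Hist2h2aa2 had 0 in both, and Hist1h1t, a linker histone known from testis, had 4 UMIs in the DMSO library and 0 in the Selinexor library. The members summed to 45556 UMIs, of which Hist1h1b, Hist1h4d and Hist1h1e together held 54%, and the 12 most abundant members 81.8%. At least 50 UMIs over both libraries, the minimum for a gene to count as measured, were reached by 44 members. Several members share long stretches with near-identical copies, which can split or hide their counts. All 50-base stretches of Hist2h2aa2 and 89.8% of those of Hist1h4m also occur in another gene, and these were among the members at 0. For the other members at 0 the share was 97.3% (Hist1h2bq), 38.2% (Hist1h2ba) and 2.35% (Hist1h2aa). Hist1h2ap, at 93.1%, had 677 UMIs over both libraries, so a high share did not always go with 0 counts. Hist1h1b and Hist1h1a shared none with any other gene.

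The histone transcripts were lower in the Selinexor library. The 67 members summed to 28909 UMIs, or 2039 CPM, in the DMSO library and to 16647 UMIs, or 1302 CPM, in the Selinexor library. The sum was thus 1.57-fold (1.54 to 1.60) higher with DMSO, a log2 ratio of −0.65 (−0.67 to −0.62) for Selinexor against DMSO. Of the 44 measured members, 19 were lower with Selinexor by at least 1.5-fold and 0 were higher by that much, whereas over all 10390 measured genes 3.88% were lower and 9.73% higher. All but 1 of the 44 had a log2 ratio below 0, the exception being Hist1h4b with 23 and 27 UMIs, named after its value was seen. The members' median log2 ratio was −0.56, beside 0.13 over all genes. Without the cell richest in histone UMIs of each library, 17 of the 44 were at least 1.5-fold lower, beside 3.79% of all genes. Log2 ratios of single genes are of CPM + 1, which understates ratios of low genes, and their intervals are of the plain CPM ratio. Scaling by TMM lowered the median of all genes to 0.0047 and that of the members to −0.68. With it 28 of 44 members were at least 1.5-fold lower, beside 6.15% of all genes, and 43 were again below 0.

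**Figure D1:**
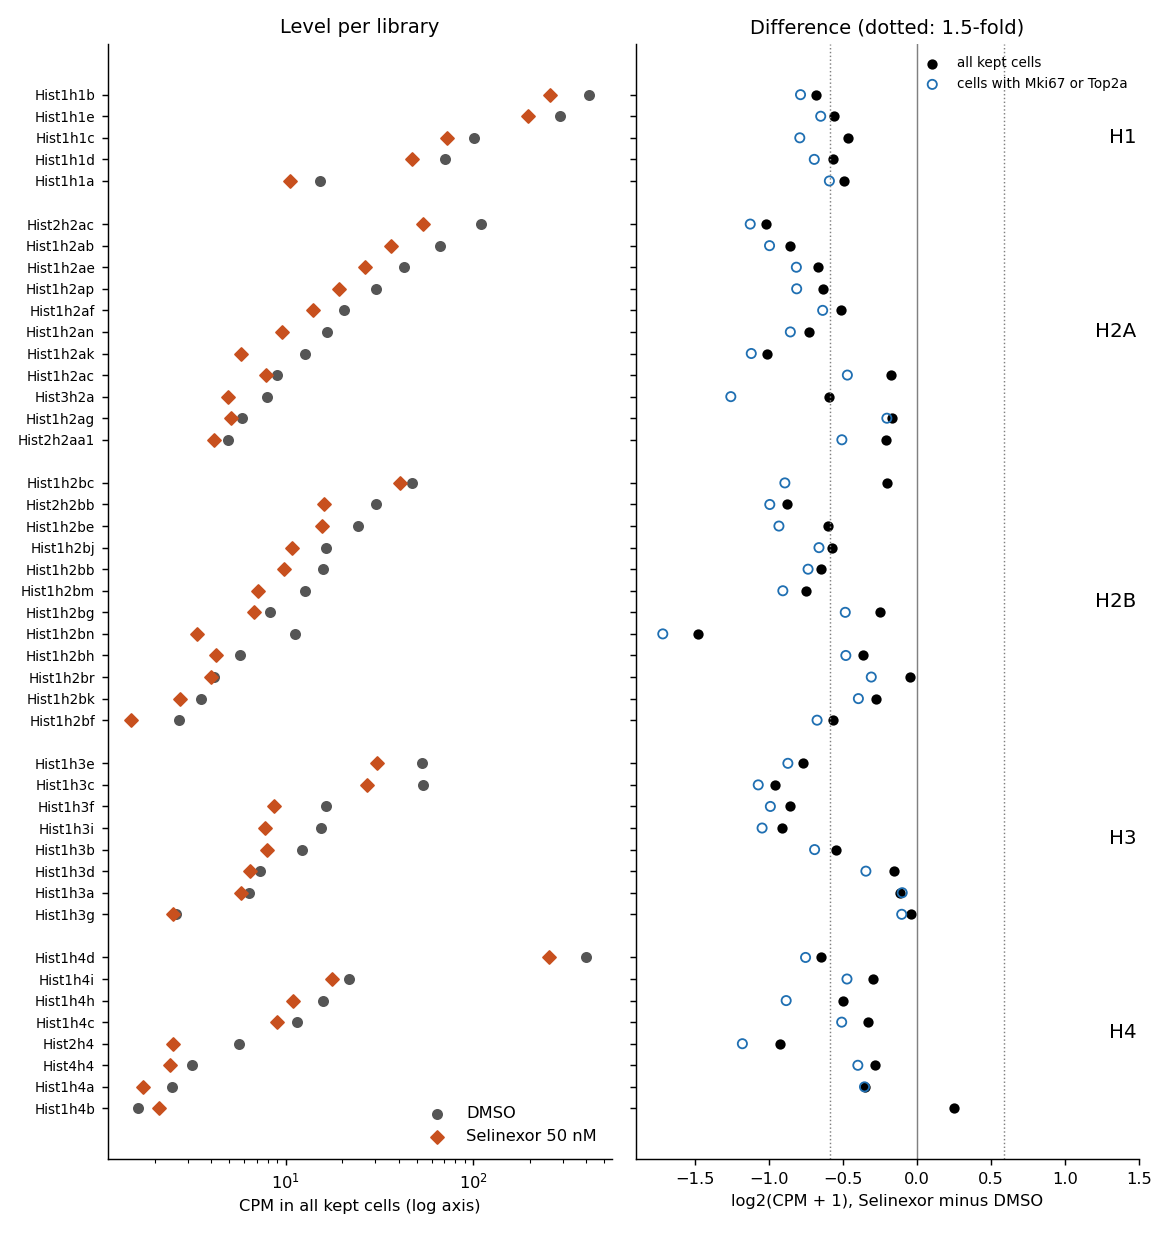
CPM of the 44 measured histone genes in all kept cells of the DMSO library (grey circles) and the Selinexor library (orange diamonds) on a log axis, grouped by family, and the difference in log2(CPM + 1), Selinexor minus DMSO, in all kept cells (black) and in cells holding Mki67 or Top2a (blue rings, 43 genes). Dotted lines mark a 1.5-fold difference; 43 of the 44 black points lie left of 0, and Hist1h2bn lies farthest left.

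The linker histones, which bind the DNA between nucleosomes, supplied the most counts. The 6 H1 genes summed to 887 CPM in the DMSO library and 582 CPM in the Selinexor library, a log2 ratio of −0.61 (−0.65 to −0.57), and all 5 measured H1 genes were below 0. Hist1h1b, on chromosome 13 (21779883 to 21780625, minus strand), was the most abundant member, with 5844 UMIs (412 CPM) in the DMSO library and 3281 UMIs (257 CPM) in the Selinexor library, a log2 ratio of −0.68 (−0.75 to −0.62). It was the 1 H1 gene past 1.5-fold, by a narrow margin over its relatives. Hist1h1e had 289 and 195 CPM (−0.56), Hist1h1d 70.3 and 47.1 CPM (−0.57), and Hist1h1c 100.2 and 72.4 CPM (−0.46). Hist1h1a had 15.2 and 10.6 CPM, a log2 ratio of −0.49. The H1 genes thus lay close together in their library difference, although they differed widely in which cells held them.

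The H2A genes, whose protein pairs with H2B on the flank of the nucleosome core, had the lowest summed ratio of the 5 families, with an interval that overlapped that of H3. Their sum was 330.5 CPM in the DMSO library and 191 CPM in the Selinexor library, a log2 ratio of −0.79 (−0.86 to −0.72). Of 11 measured H2A genes, 7 were at least 1.5-fold lower, beside 3.88% of all genes. Hist2h2ac, from the smaller gene cluster on chromosome 3, had 1557 UMIs (109.8 CPM) in the DMSO library and 686 UMIs (53.7 CPM) in the Selinexor library, a log2 ratio of −1.02 (−1.17 to −0.90). Hist1h2ab had 66.7 and 36.4 CPM, a log2 ratio of −0.86. Hist1h2ae (−0.67), Hist1h2ap (−0.63), Hist1h2an (−0.73), Hist1h2ak (−1.01) and Hist3h2a (−0.60) were also past 1.5-fold. The Hist3h2a call did not hold without the DMSO cell richest in histone UMIs (−0.38), and its direction turned with every cell weighted equally (0.56) and with the same mix of clusters in both libraries (0.93). Of the 50-base stretches of Hist1h2ap and Hist1h2an, 93.1% and 85.8% occur in other genes, so the assignment of their counts is uncertain.

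The H2B genes included both the lowest ratio of a measured member and some near 0. The family summed to 187 CPM in the DMSO library and 126 CPM in the Selinexor library, a log2 ratio of −0.57 (−0.66 to −0.48). Of 12 measured members, 5 were at least 1.5-fold lower, beside 3.88% of all genes. Hist1h2bn had 158 UMIs (11.2 CPM) in the DMSO library and 43 UMIs (3.36 CPM) in the Selinexor library, a log2 ratio of −1.48 (−2.25 to −1.23), and 86.5% of its 50-base stretches are shared with other genes. Hist2h2bb (−0.88), Hist1h2bm (−0.75), Hist1h2bb (−0.65) and Hist1h2be (−0.60) were past 1.5-fold as well. Hist1h2be was at −0.58 without the cell richest in histone UMIs of each library, just short of 1.5-fold, and at 0.11 with every cell weighted equally. Hist1h2bc, the most abundant H2B gene, had 665 UMIs (46.9 CPM) in the DMSO library and 519 UMIs (40.6 CPM) in the Selinexor library, a log2 ratio of −0.20 (−0.38 to −0.04). A single DMSO cell held 131 of those 665 UMIs. Without the cell richest in histone UMIs in each library, Hist1h2bc was at 37.7 CPM with DMSO and 40.7 CPM with Selinexor, a log2 ratio of 0.11, so its direction rested on that cell.

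The H3 and H4 genes encode the inner core of the nucleosome. H3 summed to 171 CPM in the DMSO library and 100.5 CPM in the Selinexor library (−0.76, −0.86 to −0.67). Of 8 measured H3 members, 4 were at least 1.5-fold lower, beside 3.88% of all genes. These were Hist1h3e (53.0 and 30.6 CPM, −0.77), Hist1h3c (53.8 and 27.2 CPM, −0.96), Hist1h3f (−0.86) and Hist1h3i (−0.91). H4 summed to 464 and 303 CPM (−0.62, −0.67 to −0.56), and 2 of 8 measured members were at least 1.5-fold lower, beside the same 3.88%. Hist1h4d dominated this family, with 5647 UMIs (398 CPM) in the DMSO library and 3237 UMIs (253 CPM) in the Selinexor library, a log2 ratio of −0.65 (−0.72 to −0.59). Hist2h4, the other, had 80 and 32 UMIs (−0.92). Hist1h4i was less lowered, with 21.8 and 17.5 CPM (−0.30, −0.57 to −0.06).

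The counts lay overwhelmingly in cells with proliferation transcripts. Mki67, a marker of cycling cells, and Top2a, the topoisomerase that untangles replicated DNA, were used to divide the cells: 712 DMSO cells (40.9%) and 718 Selinexor cells (36.6%) held at least 1 UMI of either. These cells held 60.2% of all UMIs in the DMSO library but 92.1% (91.7 to 92.4%) of the histone UMIs. In the Selinexor library they held 64.9% of all UMIs and 89.7% (89.3 to 90.2%) of the histone UMIs. The histone sum was 3118 CPM in DMSO cells with Mki67 or Top2a and 407 CPM in those without, a 7.67-fold difference. In the Selinexor library it was 1800 and 381 CPM, a 4.73-fold difference. Within the DMSO library, 37 of 39 measured members were at least 1.5-fold higher in the cells with Mki67 or Top2a, beside 13.9% of all measured genes, and 0 were lower, beside 6.21%. Within the Selinexor library 31 of 36 were higher, beside 12.7% of genes, and 2 were lower, beside 9.6%. After every cell was thinned to 2000 UMIs, with 314 DMSO and 783 Selinexor cells too shallow to enter, 466 DMSO and 416 Selinexor cells still had a UMI of Mki67 or Top2a, and they held 77.4% and 77.9% of the histone UMIs.

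In cells with Mki67 or Top2a the histone sum was 3118 CPM with DMSO and 1800 CPM with Selinexor, a log2 ratio of −0.79 (−0.82 to −0.76). Of 43 measured members, 29 were at least 1.5-fold lower, beside 4.62% of all genes, 0 were higher, beside 9.07%, and all 43 were below 0. In cells without either gene the sum was 407 CPM and 381 CPM, a log2 ratio of −0.10 (−0.19 to −0.0043). Only 12 members were measured there. Hist1h1b (−0.78), Hist2h2ac (−0.87) and Hist1h3e (−0.75) were at least 1.5-fold lower, beside 4.21% of all genes, and Hist1h2be (0.60) and Hist1h4h (0.68) at least 1.5-fold higher, beside 15.5%. The summed ratio without either gene changed with the cells used and with how the class was drawn. It was −0.46 (−0.58 to −0.34) when cells under 1000 genes or with 5% or more mitochondrial UMIs were left out. It was 0.019 when the class was drawn from 8 proliferation genes. After thinning to 2000 UMIs it was −0.56 (−0.71 to −0.42), but the class was then drawn anew on the thinned counts. Of cells with at least 2000 UMIs, 698 DMSO and 672 Selinexor cells held Mki67 or Top2a before thinning, and 466 and 416 after. The class without thus took in cells that had lost these UMIs, so −0.56 is not a value for the same cells at equal depth. The median cell without Mki67 or Top2a had 4566 UMIs in the DMSO library and 1415 in the Selinexor library, and the part of depth in this ratio was not tested further.

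Single cells with Mki67 or Top2a ranged widely. Per 10000 UMIs of a cell, the median DMSO cell of this class held 8.67 histone UMIs, with 2.81 at the lower quartile and 49.4 at the upper. The median Selinexor cell held 4.69, with quartiles of 1.81 and 23.4. The 72 richest cells of each library held 38.9% of that class's histone UMIs with DMSO and 47.9% with Selinexor. Histone counts were thus carried by a minority of the cells with proliferation transcripts in both libraries.

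The members differed in how strictly they followed that class, as the plot of the share outside it shows. Hist1h1b was among the strictest, with 1.44% of its UMIs outside cells holding Mki67 or Top2a in the DMSO library and 1.13% in the Selinexor library. Hist1h2an (0.85% and 0.82%), Hist1h1a (1.85% and 0.74%) and Hist1h2bn (0% and 4.65%) were the other 3 with the lowest shares. At the other end stood Hist1h2bc, with 47.8% of its UMIs outside the class in the DMSO library and 65.7% in the Selinexor library. Hist3h2a followed with 46.0% and 68.3%, on 113 and 63 UMIs. Hist1h4i (30.1% and 33.5%) and Hist1h1c (21.5% and 32.7%) came next. Hist1h2bc and Hist3h2a were the 2 members that were lower in the cells with Mki67 or Top2a than in those without, at log2 ratios of −1.78 and −1.64 in the Selinexor library. Their ratios in the DMSO library were −0.46 and −0.33, and −1.12 and −0.76 without the cell richest in histone UMIs, which held 131 UMIs of Hist1h2bc and 18 of Hist3h2a. That cell was left out after the values were seen. Without it their shares outside the class were 59.5% and 54.7%.

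**Figure D2:**
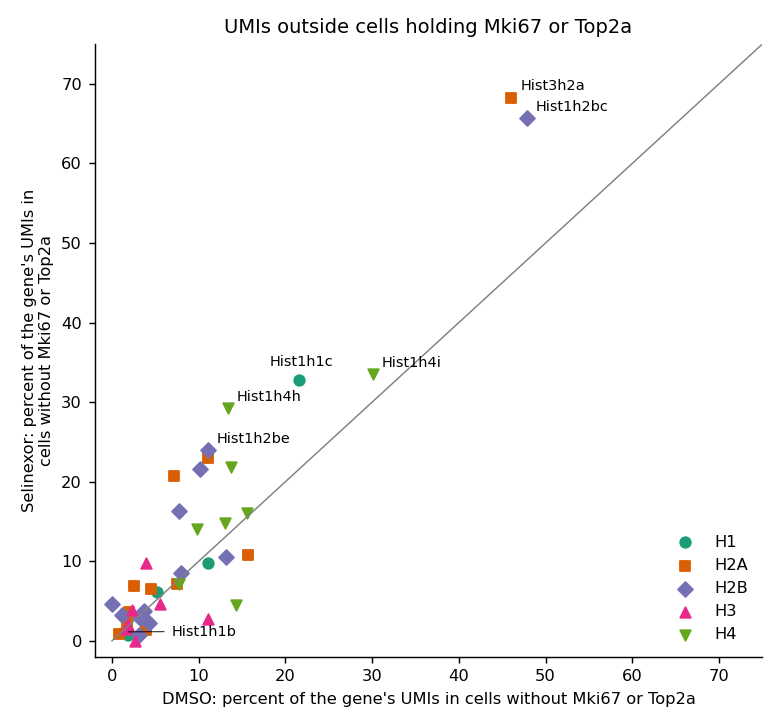
Percent of each measured histone gene's UMIs that lay in cells without Mki67 or Top2a, DMSO library on the horizontal axis and Selinexor library on the vertical axis, with 1 point per gene, a symbol per family and the line of equal shares. Most of the 44 genes sit near the origin, like Hist1h1b at 1.44% and 1.13%, while Hist1h2bc and Hist3h2a stand apart at 46.0% or more on both axes.

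The share also differed between groups of members formed by their annotated 3′ ends. Among measured members, the 12 with an AATAAA after the stop codon had a median of 12.4% of their UMIs outside the class in the DMSO library (range 3.70 to 47.8%) and 21.7% in the Selinexor library. The 24 with a stem-loop and no AATAAA had medians of 7.33% and 7.17%, with Hist1h4i the highest. The 8 with neither, which include Hist1h1b and Hist1h1a and are mostly annotated to the stop codon, had medians of 1.78% and 1.69%. The ranges overlapped, and the annotation of the third group is too short to place it. Several of the 24 are also annotated only a little past the stem-loop, such as Hist1h2ap (3 bases), Hist1h2ab (11) and Hist1h2bj (23). An AATAAA further downstream would not be seen in these. The part of annotation length in the contrast was not tested.

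For Hist1h1c the summed ratio had opposite signs in the 2 classes of cells. In cells with Mki67 or Top2a its log2 ratio was −0.79, and in cells without it had 54.2 CPM with DMSO and 67.6 CPM with Selinexor (0.31). Hist1h2bc had 56.4 and 76.0 CPM (0.43) in cells without. The cells without lay in different clusters in the 2 libraries: of the low-UMI clusters described further on, cluster 0 held 60 DMSO and 615 Selinexor cells of this class and cluster 4 held 254 and 19. Neither gene kept 1 direction within clusters, as given with them. In cells with Mki67 or Top2a the ratio of Hist1h2bc was −0.89, but −0.23 (25.4 and 21.5 CPM) without the richest cell. Most of that value thus rested on 1 DMSO cell. Hist3h2a, on few UMIs, had −1.26 in cells with, or −0.82 without that cell, and 0.051 in cells without Mki67 or Top2a. The H2B family summed had 84.1% (82.6 to 85.4%) of its UMIs in cells with Mki67 or Top2a in the DMSO library and 71.9% (69.6 to 74.1%) in the Selinexor library. Hist1h2bc alone held most of the rest: 318 of 422 H2B UMIs outside the class with DMSO and 341 of 453 with Selinexor. The H3 family had 96.4% and 96.3%. Whether the library ratio differs between the classes was not tested.

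The genes that make up the histone counts also changed between the classes of cells. In cells with Mki67 or Top2a, Hist1h1b was 21.6% (21.1 to 22.1%) of histone UMIs with DMSO and 21.7% (21.1 to 22.4%) with Selinexor, and Hist1h2bc 1.30% (0.82% without the richest cell) and 1.19%. In cells without, the low-UMI late neutrophil-like clusters numbered 0 and 4 were set apart from the other clusters because of their depth, a choice made after their values were seen. In clusters 0 and 4 Hist1h1b was 2.34% (1.29 to 3.9%) of histone UMIs with DMSO and 1.96% (1.07 to 3.26%) with Selinexor. Hist1h2bc made up 19.1% (16 to 22.4%) and 24.6% (21.5 to 27.9%), and Hist1h1c 19.9% and 15.5%. Hist1h4d held between 18.1% and 19.6% in the 3 classes of DMSO cells, and 20.1%, 12% and 14.8% in the Selinexor cells with, in clusters 0 and 4, and in the other clusters.

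**Figure D3:**
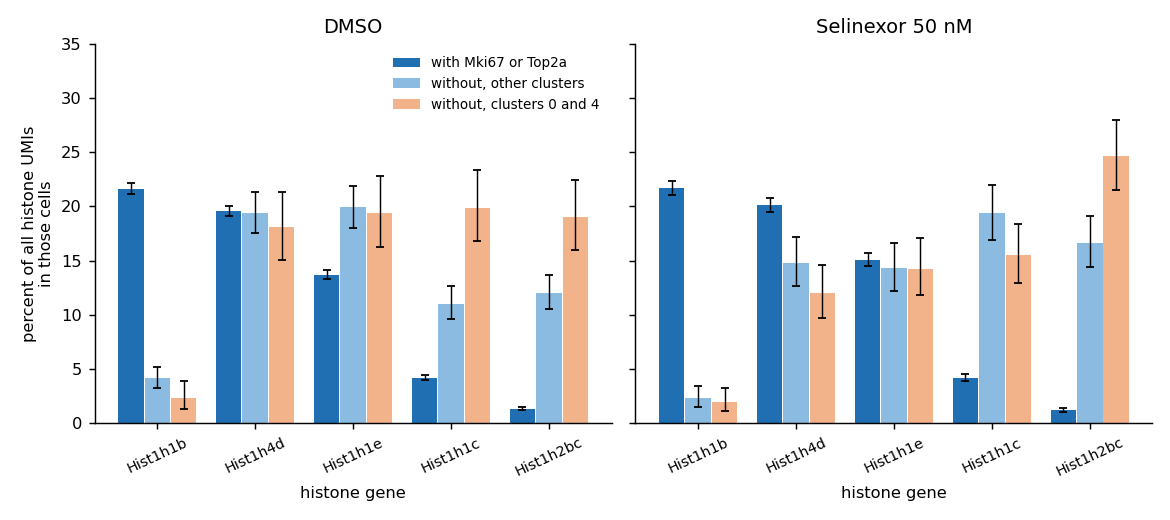
Share of all histone UMIs, in percent with 95% counting intervals, held by 5 histone genes in cells with Mki67 or Top2a, in cells without in clusters 0 and 4, and in cells without in all other clusters, for the DMSO library and the Selinexor library. Hist1h1b is tall only in cells with Mki67 or Top2a (21.6% and 21.7%), while Hist1h2bc rises from 1.30% and 1.19% there to 19.1% and 24.6% in clusters 0 and 4.

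Across cell states the histone level was highest at the early end of the neutrophil series. Cells of both libraries were clustered together on genes from which all members, Mki67 and Top2a were left out, giving 14 clusters, and clusters were named from marker lists. The early neutrophil-like cluster (cluster 6, led by Elane, Ctsg, Prtn3 and Mpo) had the highest level among the clusters compared, 4602 CPM in 150 DMSO cells and 3020 CPM in 101 Selinexor cells, and 94.0% and 94.1% of its cells held Mki67 or Top2a. The intermediate neutrophil-like cluster (cluster 1, led by Ltf, Camp and Ngp) had 2554 CPM in 249 DMSO cells and 2037 CPM in 255 Selinexor cells. The late neutrophil-like cluster 3, led by Mmp9 and Cxcr2, had 319 and 544 CPM, with 8.96% and 7.35% of its cells holding Mki67 or Top2a. Its median cell had 4499 UMIs with DMSO and 2387 with Selinexor. Cluster 2, led by Mrc1, Fn1 and Mmp12, was left unnamed because its leading genes mix macrophage and monocyte markers, and it had 1150 and 618 CPM. Cluster 9, led by Ccl17 and class II genes such as H2-Ab1 with C1qb and C1qa, was likewise unnamed and had 855 and 706 CPM. Cluster 7, led by Tcaf1 with F13a1 and Ear2 and unnamed too, had 3357 CPM in 33 DMSO cells and 1807 CPM in 213 Selinexor cells.

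Within these states the cells with Mki67 or Top2a had lower histone levels in the Selinexor library. A ratio was taken where a cluster gave at least 20 such cells in each library, which left 5 clusters, and all 5 were below 0. The log2 ratio was −0.59 (−0.64 to −0.54) in the early neutrophil-like cluster, with 4747 and 3153 CPM. It was −0.41 (−0.47 to −0.34) in the intermediate neutrophil-like cluster and −0.89 (−0.98 to −0.79) in cluster 2. Cluster 7 had the largest difference, −1.07 (−1.18 to −0.96), on 21 DMSO cells. In cluster 9 the ratio was −0.14 with an interval from −0.31 to 0.03, on 61 and 23 cells. Clusters 5 and 8, with 260 and 189 DMSO cells, had 5 and 3 Selinexor cells and gave no ratio.

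Over all cells of a cluster, 8 of 9 ratios were below 0, 6 of them with their whole interval. The exception was cluster 3, the late neutrophil-like cells, at 0.77 (0.54 to 1.00). Of its 280 Selinexor histone UMIs, 75 came from 13 cells with Mki67 or Top2a. Among its cells without either gene the levels were 337 and 446 CPM (0.40, 0.14 to 0.66), where Hist1h1c had 46.3 and 130.7 CPM and Hist1h2bc 59.5 and 119.8 CPM, while Hist1h4d had 65.0 and 45.7 CPM. In the other clusters with at least 20 cells without Mki67 or Top2a in each library these genes differed. Hist1h2bc was higher with Selinexor in cluster 0 (166 and 250 CPM) and lower in clusters 1 (18.1 and 8.46), 2 (83.1 and 46.1), 9 (42.3 and 31.9) and 10 (78.2 and 43.1). Hist1h1c was lower with Selinexor in clusters 0 (268.5 and 162.5 CPM), 1 (54.1 and 38.9) and 10 (78.2 and 52.7), alike in cluster 2 (34.2 and 33.7) and higher in cluster 9 (22.9 and 39). Several of these values rest on fewer than 20 UMIs and their intervals overlap. The lowest ratio, −3.23 in the unnamed cluster 10 led by Gpnmb, rested on 7 DMSO cells with 231 of the cluster's 278 DMSO UMIs. In its cells without Mki67 or Top2a it was −1.07 (−1.64 to −0.49).

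**Figure D4:**
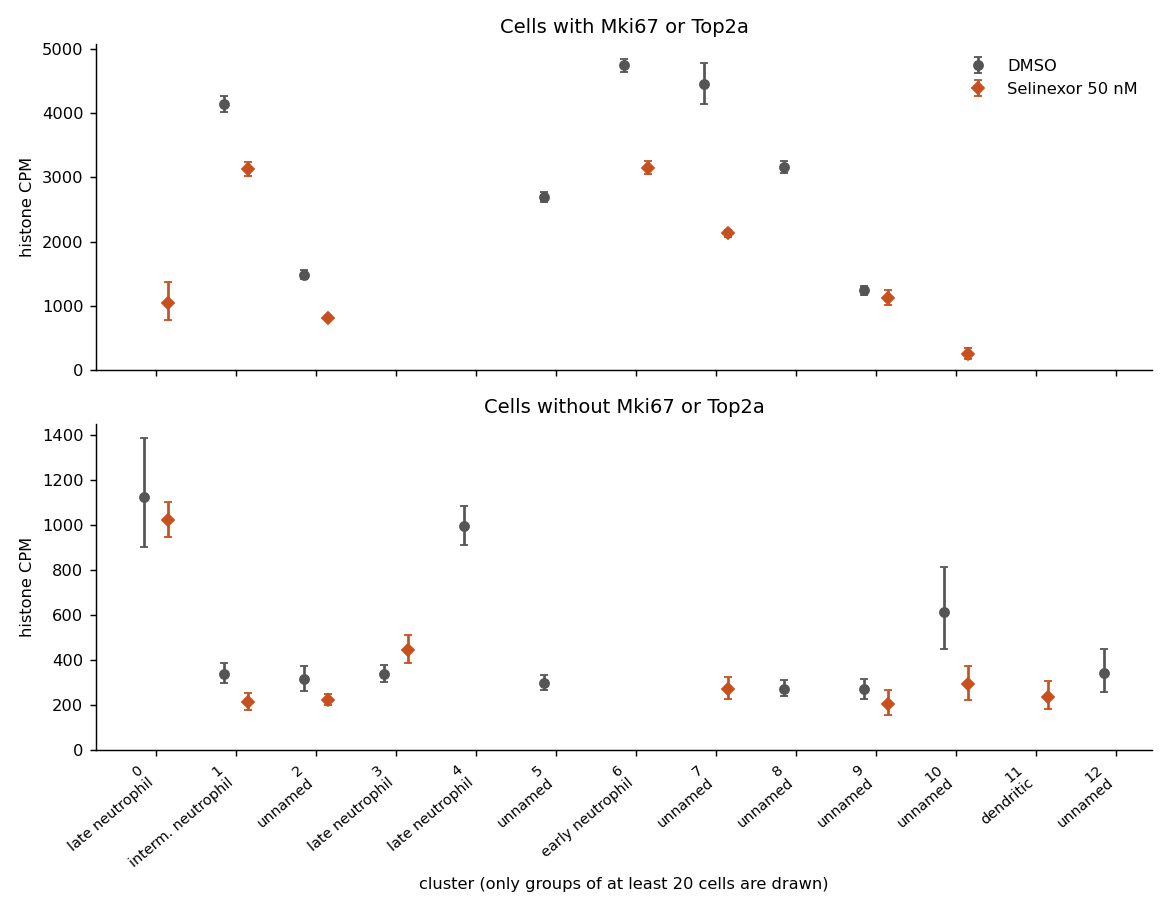
Summed histone CPM per cluster in cells with Mki67 or Top2a and in cells without, in the DMSO library (grey circles) and the Selinexor library (orange diamonds), with 95% counting intervals; groups under 20 cells are not drawn. In cells with these genes the early neutrophil-like cluster 6 is highest at 4747 and 3153 CPM, and in cells without them the low-UMI clusters 0 and 4 lie near 1000 CPM, above the other clusters.

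Clusters 0 and 4 stood apart among cells without Mki67 or Top2a. Their histone level was 1125 CPM with DMSO and 1022 CPM with Selinexor in cluster 0, and 994 CPM with DMSO in cluster 4, whereas the other clusters with at least 20 such cells lay between 206 and 613 CPM. These levels rest on few UMIs per cell: 88 histone UMIs in 60 DMSO cells of cluster 0, 692 in 615 Selinexor cells of cluster 0 and 510 in 254 DMSO cells of cluster 4. The part of depth and of free RNA in them was not tested. Without thinning, 84.2% of DMSO cells and 73.4% of Selinexor cells held at least 1 histone UMI. In cells thinned to 2000 UMIs these shares were 57.4% (54.8 to 60.0%) and 52.1% (49.2 to 55.0%). The late neutrophil-like cluster 3, in which few cells held Mki67 or Top2a, still had a histone UMI in 42.2% of DMSO cells and 45.6% of Selinexor cells after thinning, against 78.5% and 77.2% in the early neutrophil-like cluster. Having a histone UMI at all is therefore not read as expression here.

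Histone levels also varied with position in the cell cycle. Cells with Mki67 or Top2a and at least 2000 UMIs (698 DMSO and 672 Selinexor cells) were divided in 4 equal parts by the ratio of S phase list UMIs to G2M list UMIs, from G2M-richest to S-richest. These are ranges, not types, and 9 to 39 cells of each part and library lay within 0.1 of a boundary on the log scale of the ratio. The DMSO levels from the first to the fourth part were 2895, 4034, 3389 and 2085 CPM, highest in the second. The Selinexor levels were 1948, 2118, 2039 and 1259 CPM, lower in every part. The log2 ratios were −0.57 (−0.64 to −0.51), −0.93 (−0.98 to −0.88), −0.73 (−0.79 to −0.68) and −0.73 (−0.79 to −0.66). The Selinexor cells lay more often in the S-richer parts: 20.2%, 23.8%, 28.6% and 27.4% of them from the first to the fourth, against 29.7%, 26.1%, 21.5% and 22.8% of DMSO cells. The parts were not matched between libraries: in the second, the S phase list stood at 1809 and 1433 CPM and the G2M list at 9970 and 8250 CPM. The part of cell cycle position in the library difference was not tested.

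**Figure D5:**
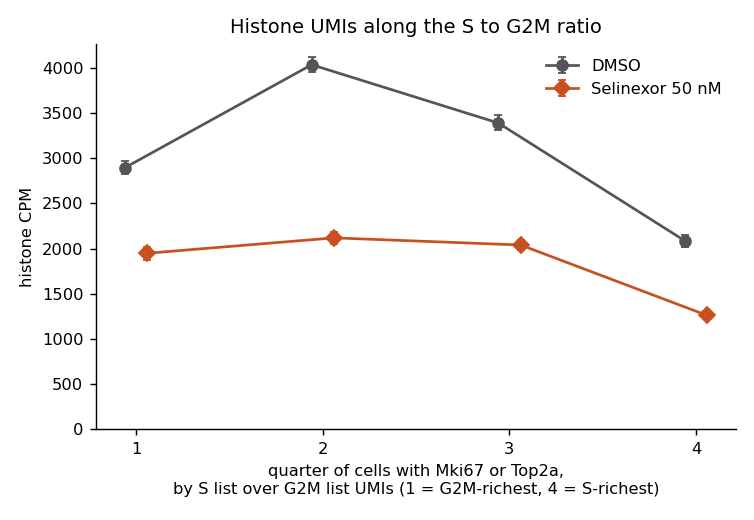
Summed histone CPM with 95% counting intervals in 4 parts of the cells with Mki67 or Top2a, ordered from G2M-richest to S-richest, in the DMSO library (grey circles) and the Selinexor library (orange diamonds). The Selinexor points, 1259 to 2118 CPM, lie below the DMSO point of the same part throughout.

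Hist1h1b and Hist1h4d were spread differently over the parts. In the DMSO library both were highest in the second part. Hist1h1b ran from 452 CPM in the G2M-richest part to 862, 834 and 580 CPM, whereas Hist1h4d ran from 695 to 787, 577 and 341 CPM. In the Selinexor library Hist1h1b was highest in the third part (315, 409.5, 495.5 and 328.5 CPM), and Hist1h4d in the G2M-richest (561.5, 472, 356.5 and 171 CPM). In both libraries Hist1h4d thus lay further towards the G2M-rich end than Hist1h1b.

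Genes that serve the histones lay nearer to the other genes in their medians. Variant histones, most of which are made throughout the cycle from polyadenylated mRNAs, had a median log2 ratio of −0.11 over 10 measured genes. Of these, 2 were at least 1.5-fold lower, beside 3.88% of all genes, and 0 higher, beside 9.73%. The same shares of all genes stand beside the list counts that follow. H3f3a and H3f3b, the replacement H3.3 genes, had 1300 and 1306 CPM (0.01) and 1745 and 1920 CPM (0.14). H2afz, the H2A.Z gene, had 1403 and 1193 CPM (−0.23). The 2 lower ones were H2afx, the H2A.X gene of the DNA damage response (73.4 and 47.0 CPM, −0.63), and H1f0, the linker histone of differentiated cells (74.6 and 34.7 CPM, −1.08). Among the genes of histone mRNA 3′ end processing, 0 of 19 measured were 1.5-fold changed and the median was 0.10. Slbp itself had 58.1 and 69.5 CPM (0.25), and Snrpe, Snrpf and Snrpg, which encode proteins of the Sm ring, lay between −0.18 and −0.15. The histone mRNA decay list (0 of 14, median −0.02) and the histone chaperones (0 of 21, median 0.07), with Npm1 at 0.01 and Nap1l1 at 0.21, were near the median of all genes.

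Proliferation genes differed less than the histones in their list medians. Mki67 had a log2 ratio of −0.18 and Top2a of −0.28. Of the 40 S phase genes, all measured, 3 were at least 1.5-fold higher and 0 lower, with a median of 0.20. Over all genes 9.73% were higher and 3.88% lower, so this count was near the background. Among them were Cdc6, which licenses replication origins (9.59 and 15.8 CPM, 0.67), and Ung, a uracil-removing repair enzyme (0.76). Pcna, the sliding clamp of the replication fork, had 109.8 and 137 CPM (0.32). In cells with Mki67 or Top2a, the S phase list summed to 2163 CPM with DMSO and 2204 CPM with Selinexor (0.03, −0.00 to 0.06), while the histones there were at −0.79. The 51 G2M genes had a median of −0.21, with 4 at least 1.5-fold lower, beside 3.88% of all genes, and 0 higher, beside 9.73%. The 4 were Cdk1, the kinase of mitotic entry (−0.59), Ube2c, a ubiquitin-conjugating enzyme of mitotic exit (206 and 118 CPM, −0.80), Cenpf, a kinetochore protein (−0.62), and Nusap1, a spindle protein (−0.60). In cells with Mki67 or Top2a the G2M list, which includes both of these genes, summed to 8435 and 6508 CPM (−0.37). There its median was −0.33, with 8 of 51 genes at least 1.5-fold lower, beside 4.62% of all genes, and 0 higher, beside 9.07%.

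The promoters of the members share short motifs. A RefSeq start (GRCm38.p6) matched 61 of the 67 members through current or older symbols. In the 250 bases before the start, CCAAT was found on either strand in 50 of 61 members (82.0%), against 33.9% of 32851 listed promoters. TATAA was found in 39 (63.9%, against 22.8%) and AAACACA, the element described in H1 promoters, in 9 (14.8%, against 6.25%), 5 of which were H1 genes: Hist1h1b, Hist1h1c, Hist1h1d, Hist1h1e and Hist1h1t. The 250 bases before the Hist1h1b start are shown because it is the most abundant member, with these 3 motifs in capitals on either strand. The last run of capitals holds a TATAA on each strand, which overlap.
Hist1h1b (chr13:21780626-21780875, minus strand): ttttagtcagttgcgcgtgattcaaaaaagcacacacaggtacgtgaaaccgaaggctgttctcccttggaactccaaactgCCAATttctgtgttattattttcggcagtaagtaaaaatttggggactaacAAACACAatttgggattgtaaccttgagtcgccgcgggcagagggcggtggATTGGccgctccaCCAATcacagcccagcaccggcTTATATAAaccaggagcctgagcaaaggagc

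A matching motif is a description of the sequence and not a measured binding site. Among the members with a matched start, 9 pairs, each an H2A with an H2B gene, started head to head with 163 to 280 bases between their starts. Pairs holding a member without a matched start, such as Hist1h2bc or Hist1h2ap, were not sought, so measured pairs may be missing. Both genes were measured in 3 pairs. Hist1h2ak (180 and 74 UMIs, −1.01) and Hist1h2bn (158 and 43 UMIs, −1.48) were the 1 pair in which both were at least 1.5-fold lower. They are the closest pair. Hist1h2ae (−0.67) with Hist1h2bg (−0.25) had 1 gene past 1.5-fold, and Hist1h2ag (−0.17) with Hist1h2bj (−0.57) had none. The 163 bases between the starts of Hist1h2ak and Hist1h2bn, on the plus strand towards Hist1h2bn, hold 3 CCAAT motifs, 2 of them on the minus strand, marked in capitals.
Hist1h2ak to Hist1h2bn (chr13:21753913-21754075, plus strand): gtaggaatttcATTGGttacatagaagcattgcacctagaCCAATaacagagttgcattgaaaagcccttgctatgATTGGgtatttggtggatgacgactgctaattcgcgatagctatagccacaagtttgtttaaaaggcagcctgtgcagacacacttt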

How the data were processed

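The deposited values are raw UMI counts for each gene in each cell. Cell Ranger 6.1.2 is named in the file headers and, with the build mm10, in the submitters' processing notes. Which annotation release was used, and how barcodes were called as cells, is not given in the sources used here. Barcodes under 200 genes or with 10% or more mitochondrial UMIs were dropped, as were 4 Scrublet doublets per library (scanpy 1.11.5), which left 1739 of 1784 and 1963 of 1989. Doublets were in effect not removed. Counts were summed per library or class and scaled to CPM. Ratios are log2(CPM + 1), Selinexor minus DMSO, with at least 50 UMIs over both libraries for a measured gene and 1.5-fold for a call. Sums have exact Poisson, ratios exact conditional binomial and shares Clopper-Pearson 95% intervals. Cells were clustered without the members, Mki67 and Top2a (2000 variable genes, 30 principal components, 15 neighbours, Leiden resolution 1). Calls were tried on simulated library totals that held counting error only, with known changes larger than 1.5-fold. That trial had no spread between cells or cultures, so it says nothing about either. Named members are the 12 most abundant, all past 1.5-fold, and the 4 highest and 4 lowest in share outside cells with Mki67 or Top2a; others were named after their values were seen. The members and lists were chosen with earlier results of these data known. The values of 1 S phase list gene are not reported here.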

Additional observations from a re-analysis of the deposited data

How the results depend on the processing

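The summed histone ratio, −0.65 in the report, was −0.61 without cells under 1000 genes or with 5% or more mitochondrial UMIs, −0.62 with every cell weighted equally, −0.59 in cells thinned to 2000 UMIs, −0.54 with the same mix of clusters in both libraries, −0.78 with TMM and −0.80 with median-of-ratios scaling, and −0.10 in cells lacking Mki67 and Top2a, or 0.019 in cells lacking 8 proliferation genes. The count of 19 members at least 1.5-fold lower (3.88% of all genes) became 9 of 22 measured after thinning (5.49%) and 3 of 12 in cells lacking both genes (4.21%), where 2 were higher. With the same cell mix 20 were lower (8.87%) and 3 higher, and 35 of 44 were below 0 there and with equal cell weights. Members named in the report that turned above 0 were Hist1h2bc (0.50 with equal cell weights, 0.27 with the same mix, 0.43 in cells lacking both genes, 0.11 without the richest cell), Hist3h2a (0.56, 0.93 and 0.051 under the first 3 of these), Hist1h4i (0.25 with equal weights, 0.020 in cells lacking both genes), Hist1h2be (0.11 and 0.60 under the same 2), Hist1h1c (0.31) and Hist1h4h (0.68) in cells lacking both genes, and Hist2h2aa1 (0.66) and Hist1h3d (0.70) with the same mix. The causes were not tested.

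The share of histone UMIs in the proliferating class was 90% and 86.1% (DMSO, Selinexor) when 2 UMIs of Mki67 and Top2a were required. It was 94.1% and 91.6% with any of 8 proliferation genes, and 93.7% and 94.4% with the stricter cell filter. After thinning it was 77.4% and 77.9%, with 14 of 15 and 9 of 10 members higher, beside 12.6% and 8.52% of all genes. Alternatives within each class were chosen after seeing the data. In cells with the genes the ratio was −0.71 with 2 UMIs required, −0.74 with 8 genes and −0.69 after thinning. In cells without them it was −0.46 with the stricter filter. After thinning it was −0.56, in a class that took in cells whose Mki67 or Top2a UMIs were lost in thinning. At Leiden resolution 0.5, 3 of 3 clusters compared were below 0 in cells with Mki67 or Top2a, 3 of 4 in cells without and 6 of 7 over all cells, the last exception being a cluster led by C1qb at 0.41 (0.20 to 0.62). No paired analysis was possible because each group held 1 library. Members under 50 UMIs were not read, and with 1 library per group counting error is the only error known.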
